A study of Mus musculus with 59 samples.

Results

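This account follows 7 mouse genes of the YAP pathway and the CCN matrix family, Ccn1, Ccn2, Amotl1, Amotl2, Yap1, Wwtr1 and Tead1, through liver, bone marrow and spleen of mice given baclofen. The genes were chosen by name, from a list drawn up after earlier results of these data were known. A probe set, the group of short array probes that reads 1 transcript, was taken where the platform annotation gave exactly 1 symbol and that symbol was in the list. This gave 16 of the 45101 probe sets and 7 of 18193 genes, with 4 probe sets for Ccn1, 3 each for Amotl1 and Wwtr1, 2 each for Yap1 and Tead1, and 1 each for Ccn2 and Amotl2. One measured value is known to have played a part in the choice, the change of Ccn1 in liver between 1 and 5 days of dosing. Ccn1 in liver is therefore described without a test, and counts of these genes in liver cover the 6 others.

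YAP1 and its relative TAZ, the product of Wwtr1, are transcriptional co-activators that the Hippo kinases hold in the cytoplasm by phosphorylation. When they reach the nucleus they bind TEAD factors such as TEAD1, which supply the DNA contact, and raise target genes among which Ccn1 and Ccn2 are the textbook examples. CCN1 (formerly CYR61) and CCN2 (formerly CTGF) are secreted proteins that bind integrins and heparan sulfate in the extracellular matrix. The angiomotin-like proteins AMOTL1 and AMOTL2 bind YAP1 at cell junctions and on actin and restrain it, and Amotl2 is also a target gene of YAP1. In liver the pathway is known for its part in organ size and biliary fate, and Ccn1 and Ccn2 also respond within hours to serum, stretch and stress.

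Each of the 59 arrays measured total RNA of 1 tissue sample from B6C3F1 mice, an F1 hybrid strain. All groups received 0.5% methylcellulose or baclofen, an agonist of the GABA-B receptor used as a muscle relaxant, and tissue was taken 2 h after a single dose (1 day) or after the last of 5 daily doses (5 days). The dose, age and sex are not given in the sources used here, and no genetic change is named for any group. Liver came from the left lateral lobe, marrow from the right humerus and spleen from a cross-section. The vehicle groups held 4 samples each except for 3 livers at 1 day, and the baclofen groups held 4 samples at 1 day and 8 at 5 days in every tissue. For 5 of the 7 livers taken at 1 day the source field names the other treatment than the title and the treatment field, and the title was followed. The labels do not say that each replicate is a separate animal, so p-values measure the spread between these samples, which may be technical.

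The tissue names were borne out by marker genes. Hepatocyte genes averaged from 14.54 to 14.64 (log2 intensity) in every liver, and the median sample averaged 13.53 for neutrophil genes in marrow and 11.22 for B-cell genes in spleen. In 4 of the 59 samples transcripts of another tissue were high. Skeletal muscle genes averaged 9.99 in marrow of baclofen replicate 3 at 1 day, against 6.63 to 7.63 in the other 1-day marrows. Hepatocyte genes averaged 9.56 and 7.14 in the spleens of vehicle replicates 3 and 1 at 5 days and 9.45 in that of baclofen replicate 5 at 5 days. The next highest spleen read 6.15. Results of marrow and spleen are given with and without these samples where it matters.

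The promoters of Ccn1 and Yap1, which passed a test below, and of Amotl2, a known YAP1 target that passed none, are shown here because each carries the core letters of the TEAD motif. Ccn2 and Tead1 are named only. RefSeq windows from 250 bases before to 50 bases after the start site (assembly GRCm38.p6) matched Ccn1, Amotl1, Amotl2, Yap1 and Wwtr1, that is 5 of the 7 genes. Capitals mark the core of the TEAD motif, GGAATG, or its reverse complement where it lies on the other strand. The windows are chr3:145649936-145650235 on the minus strand for Ccn1, chr9:102717554-102717853 on the plus strand for Amotl2 and chr9:8004547-8004846 on the minus strand for Yap1, each printed 5′ to 3′ along the gene's own strand.
Ccn1: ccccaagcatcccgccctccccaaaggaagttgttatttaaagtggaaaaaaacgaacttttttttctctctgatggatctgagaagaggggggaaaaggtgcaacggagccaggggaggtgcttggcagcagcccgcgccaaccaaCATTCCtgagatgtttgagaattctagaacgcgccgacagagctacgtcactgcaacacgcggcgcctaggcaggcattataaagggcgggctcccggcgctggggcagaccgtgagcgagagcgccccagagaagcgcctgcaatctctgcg
Amotl2: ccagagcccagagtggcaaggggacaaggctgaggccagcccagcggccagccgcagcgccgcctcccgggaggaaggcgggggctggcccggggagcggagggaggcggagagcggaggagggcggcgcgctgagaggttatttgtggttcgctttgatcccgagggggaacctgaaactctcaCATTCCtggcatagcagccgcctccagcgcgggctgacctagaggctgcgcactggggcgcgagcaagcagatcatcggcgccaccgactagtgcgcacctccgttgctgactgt
Yap1: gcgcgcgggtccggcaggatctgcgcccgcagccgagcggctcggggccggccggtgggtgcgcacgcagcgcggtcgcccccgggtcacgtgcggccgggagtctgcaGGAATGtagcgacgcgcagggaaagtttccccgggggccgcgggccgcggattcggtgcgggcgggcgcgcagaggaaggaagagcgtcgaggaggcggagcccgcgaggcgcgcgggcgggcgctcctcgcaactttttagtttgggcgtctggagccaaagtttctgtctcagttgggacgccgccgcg
The 5 matched genes held 6 windows, because Wwtr1 had 2 that overlap, and its 1 core is counted in both. The core occurred in 5 of the 6 windows, those of Ccn1, Amotl2, Yap1 and Wwtr1. It occurred in 14.7% of all 32851 promoter windows of this length on either strand. It was not found in the Amotl1 window. The AP-1 motif TGANTCA, in which N is any base, occurred in 0 of the 6 windows and in 7.81% of all windows. The cAMP response site TGACG occurred in 2 of the 6, those of Ccn1 and Amotl1, against 20.8% of all windows. TATAAA occurred in 1 of the 6, that of Ccn1, against 13.6%. The glucocorticoid site TGTTCT occurred in 0 of the 6, against 19% of all windows. These are matches of letters, and binding was not measured.

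Amotl1, Amotl2 and Yap1 share chromosome 9, and Ccn1 and Wwtr1 share chromosome 3. On GRCm38.p6, Ccn1 (gene ID 16007) spans chr3:145646971-145649985 and Ccn2 (gene ID 14219) spans chr10:24595442-24598683, both short genes. Amotl1 (75723), Amotl2 (56332) and Yap1 (22601) lie at chr9:14541966-14662974, chr9:102717091-102733418 and chr9:7931999-8004638. Wwtr1 (97064) lies at chr3:57455644-57575910 and Tead1 (21676) at chr7:112679356-112906784. In each tissue the brightest probe set of a gene stood for it, and this was the same probe set in all 3 tissues for all 7 genes.

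All 7 genes passed the brightness filter in liver and spleen, and 6 passed in marrow. The filter left out the dimmest genes, those with a mean under the 40th percentile of their tissue. Tead1 fell short in marrow, at percentile 37.9 with vehicle samples at 6.22 ± 0.32 (log2 intensity, SD, n = 8). The arrays of the 3 tissues were probably normalized apart. Across tissues, genes are therefore compared by their rank within each tissue, and levels are read only where they differ many-fold.

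Ccn2 was the gene whose level set the tissues furthest apart. Vehicle spleens averaged 10.03 ± 0.27 (SD, n = 8), vehicle marrows 7.50 ± 0.87 (n = 8) and vehicle livers 6.09 ± 0.42 (n = 7), and the gene stood at percentile 92.3 of genes in spleen, 60.8 in marrow and 54.5 in liver. Yap1 ranked highest in liver, at percentile 85.3 in liver with vehicle samples at 9.26 ± 0.11 (n = 7), 63.9 in spleen at 8.11 ± 0.25 (n = 8) and 48.7 in marrow at 7.07 ± 0.19 (n = 8). Ccn1 stood near the middle of all genes in every tissue, at percentiles 48.9 in liver, 51.2 in marrow and 47.3 in spleen. Amotl2 was highest in rank in liver (76.7, against 66.2 in spleen and 58 in marrow), Amotl1 in spleen (71.2, against 62 in liver and 58.1 in marrow) and Wwtr1 in liver (66.3, against 62.9 in spleen and 53.6 in marrow). Tead1 stood at percentile 57.8 in spleen and 48.5 in liver.

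Among the 7 genes, the matrix genes Ccn1 and Ccn2 and the co-activator Yap1 passed the test of baclofen against vehicle in at least 1 tissue and time, and Amotl1, Amotl2, Wwtr1 and Tead1 passed in none of the 6 comparisons. Ccn1 rose in marrow at 1 day, Ccn2 rose in marrow at 5 days and in spleen at 1 day, and Yap1 fell in liver at 5 days. Vehicle and baclofen samples of tested members did not overlap for Yap1 in liver at 5 days (1 of 6), Ccn2 in marrow at 5 days (1 of 6) and Ccn2 in spleen at 1 day (1 of 7), where 5.49%, 5.25% and 17.2% of all genes had groups that did not overlap. They overlapped or touched for every tested member in liver at 1 day, marrow at 1 day and spleen at 5 days. There the share over all genes was 12.5%, 13.3% and 5.08%. Yap1 in liver at 1 day only touched, at a rounded value of 569.4, while the shares were counted on unrounded values. Ccn1 in liver at 5 days did not overlap either, and nothing is read from it because its change in liver played a part in the choice. The test was limma's moderated test within each tissue, with p adjusted by Benjamini and Hochberg over 10916 genes and a threshold of 0.05.

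**Figure D1:**
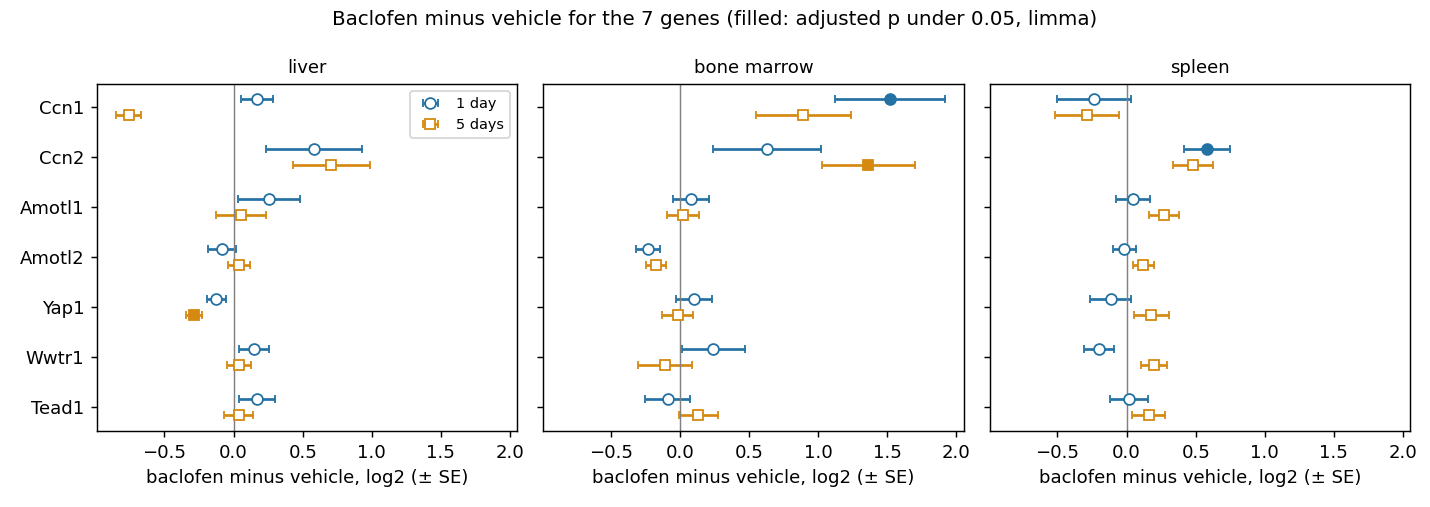
Baclofen minus vehicle for each of the 7 genes (rows) in each tissue and at each time, on the log2 scale, with bars for the standard error. Filled points have an adjusted p under 0.05 and open points do not or, for Ccn1 in liver and Tead1 in marrow, were not tested; the filled points are Ccn1 in marrow at 1 day, Ccn2 in marrow at 5 days, Ccn2 in spleen at 1 day and Yap1 in liver at 5 days.

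In marrow, Ccn1 rose 2.87-fold after 1 dose of baclofen. The 4 vehicle marrows at 1 day read 84.9, 190.5, 76.2 and 87.5 (RMA intensity, replicates 1 to 4) and the 4 baclofen marrows 260.2, 479, 151 and 386. The groups overlapped through vehicle replicate 2, which stood above baclofen replicate 3. The difference was 1.52 ± 0.40 (log2, SE) with an adjusted p of 0.0255 by limma. It was the 1 of 6 tested members called in this comparison, in which 7.36% of all genes were called, and 2 of the 6 had an unadjusted p under 0.05. Baclofen replicate 3 is the sample with the most muscle transcript, and without it the difference was 1.84 with an adjusted p of 0.00591; without vehicle replicate 2 it was 1.82 with an adjusted p of 0.0121. It did not pass without vehicle replicates 1 (adjusted p = 0.0581), 3 (0.0794) or 4 (0.0625) and without baclofen replicates 1 (0.0583), 2 (0.087) or 4 (0.0867), and with only the groups compared in the fit (0.0672).

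After 5 doses Ccn1 in marrow was 1.86-fold higher and did not pass the test. The 4 vehicle marrows read 86.7, 101, 85.8 and 126 and the 8 baclofen marrows had a lowest value of 112, a median of 183 and a highest of 384. The groups overlapped, with 4 baclofen marrows between 112 and 126 and the other 4 from 240.3 to 384. The difference was 0.89 ± 0.34 with an adjusted p of 0.1. A second Ccn1 probe set above the filter gave the same calls in marrow, with 1.69 ± 0.44 (3.22-fold, adjusted p = 0.0264) at 1 day and 0.92 ± 0.38 (adjusted p = 0.141) at 5 days when all probe sets were fitted apart. The 2 dim Ccn1 probe sets were higher by 0.46 and 0.54 at 1 day and lay below the filter.

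In liver, the Ccn1 values are listed as a description only, because their change played a part in the choice. Vehicle livers read 55.7, 67.0 and 56.7 at 1 day and 103.7, 90.4, 112 and 90.4 at 5 days. Baclofen livers read 77.5, 69.6, 59.95 and 62.1 at 1 day and ran from 51.3 over a median of 57.8 to 67.4 at 5 days (n = 8). The 4 vehicle livers at 5 days stood above all 15 other livers, while the baclofen livers at 5 days lay close to the vehicle livers at 1 day. As a description with no test, baclofen minus vehicle was 0.17 ± 0.11 at 1 day and -0.76 ± 0.09 at 5 days (1.69-fold lower), and the vehicle livers of 5 days exceeded those of 1 day by 0.73 ± 0.11. The change of the baclofen difference from 1 to 5 days, -0.93 ± 0.15, is the value known when the gene was chosen, and it shares the vehicle groups with the others. The second bright probe set gave -0.69 ± 0.12 at 5 days and the 2 dim ones -0.29 and -0.35. The gap between control probe sets at the 3′ and 5′ ends of a transcript, a measure of RNA integrity, was 0.50 ± 0.06 in the vehicle livers at 5 days and 0.44 ± 0.04 in the baclofen livers (SD), and its part in the Ccn1 values was not tested.

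In spleen, Ccn1 did not pass the test at either time. Vehicle spleens read 155, 258, 114 and 122 at 1 day and 200.4, 82.1, 118 and 125 at 5 days. Baclofen spleens read 171, 159, 90.5 and 118 at 1 day, and ran from 81.6 over 100.7 to 141 at 5 days (n = 8). Groups overlapped at both times. The differences were -0.24 ± 0.27 (adjusted p = 0.564) and -0.29 ± 0.23 (adjusted p = 0.437), and without the 3 spleens that held hepatocyte transcript the value at 5 days was 0.04.

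**Figure D2:**
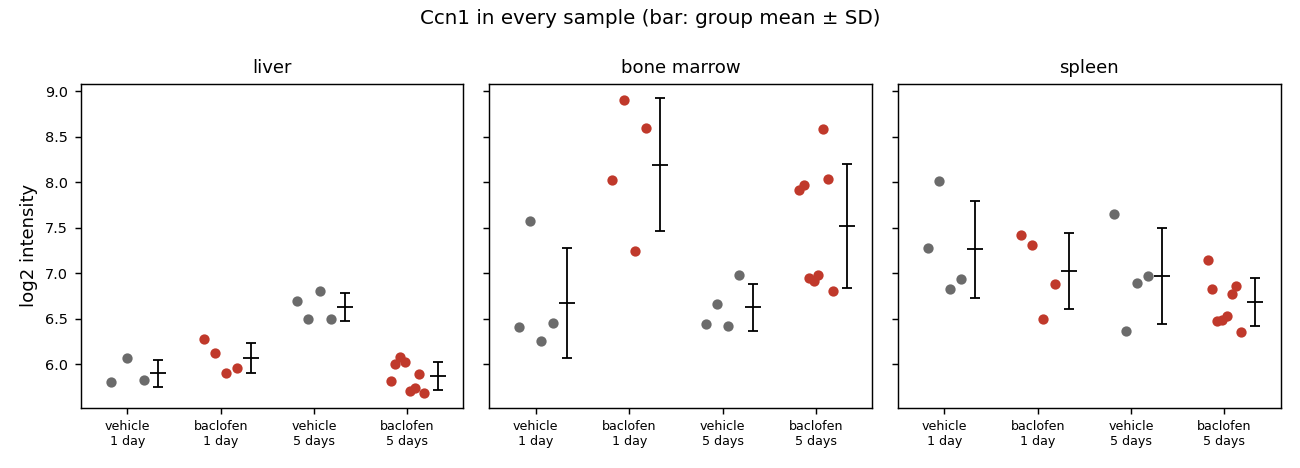
Ccn1 in every sample (points, log2 RMA intensity) by tissue, time and treatment, with group mean and SD. The 4 vehicle livers at 5 days lie above all other livers, which is a description with no test. In marrow the baclofen samples lie mostly above the vehicle samples at 1 day, and the groups overlap at both times.

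Ccn2 rose in marrow 2.57-fold after 5 doses of baclofen. The 4 vehicle marrows read 125, 127, 123 and 161 and the 8 baclofen marrows ran from 197 over a median of 393 to 567. The groups did not overlap. The difference was 1.36 ± 0.34 (log2, SE), with an adjusted p of 0.0184 by limma, and Ccn2 was the 1 of 6 tested members called, in a comparison in which 10.1% of all genes were called; 3 of the 6 had an unadjusted p under 0.05. Leaving out vehicle replicate 1 or 3 of this time ended the call (adjusted p = 0.0659 and 0.0551).

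After 1 dose the Ccn2 difference in marrow was 0.63 ± 0.39 (adjusted p = 0.344). Vehicle marrows read 129, 723, 167 and 233 and baclofen marrows 344, 546, 322 and 343. Vehicle replicate 2 stood above all 4 baclofen marrows and the other 3 vehicle marrows below all of them. Without vehicle replicate 2 the difference was 1.15 with an adjusted p of 0.0282, so this 1 sample decides the call at 1 day. The same marrow was also the highest vehicle sample of its time for Ccn1 and, at 123, for Tead1.

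In spleen, where Ccn2 is bright, it rose 1.5-fold after 1 dose. Vehicle spleens read 979, 1283, 1288 and 818 and baclofen spleens 1750, 1591, 1445 and 1645. The groups did not overlap. The difference was 0.58 ± 0.17 with an adjusted p of 0.0237, and Ccn2 was the only one of 7 tested members called or with an unadjusted p under 0.05, in a comparison in which 15.5% of all genes were called. It did not pass without vehicle replicates 1 (adjusted p = 0.069) or 4 (0.082), without baclofen replicates 1 (0.0708) or 4 (0.0583), and with only the groups compared in the fit (0.0522).

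After 5 doses Ccn2 in spleen was 1.39-fold higher and lay on the other side of the threshold. Vehicle spleens read 1183, 785, 1117 and 1020 and baclofen spleens ran from 1094 over 1426 to 1920 (n = 8). The groups overlapped through the 1 lowest baclofen spleen and the 2 highest vehicle spleens. The difference was 0.48 ± 0.14 with an adjusted p of 0.0616. None of the 7 tested members was called by limma, 2 had an unadjusted p under 0.05, and 4.43% of all genes were called. The call was gained without vehicle replicate 3 (0.0493) or 4 (0.0497) of 1 day or baclofen replicate 7 of 5 days (0.0327), and without the 3 spleens with hepatocyte transcript the difference was 0.68 with an adjusted p of 0.068.

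In liver, Ccn2 was 1.5-fold higher after 1 dose and 1.63-fold higher after 5, and neither passed the test. Vehicle livers read 42.0, 90.7 and 61.5 at 1 day and 52.2, 86.6, 78.4 and 83.5 at 5 days. Baclofen livers read 75.4, 94.5, 115 and 89.2 at 1 day and ran from 70.6 over 105.4 to 203 at 5 days (n = 8). Groups overlapped at both times, and 3 of the baclofen livers at 5 days stood near 200, at 192, 195 and 203. The differences were 0.58 ± 0.35 (adjusted p = 0.555) and 0.71 ± 0.28 (adjusted p = 0.111). With the 1-day livers grouped by the source field, the Ccn2 value at 1 day was -0.09, limma called 0 genes of all in place of 291, and the sign also turned for the 5 other tested members at 1 day.

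**Figure D3:**
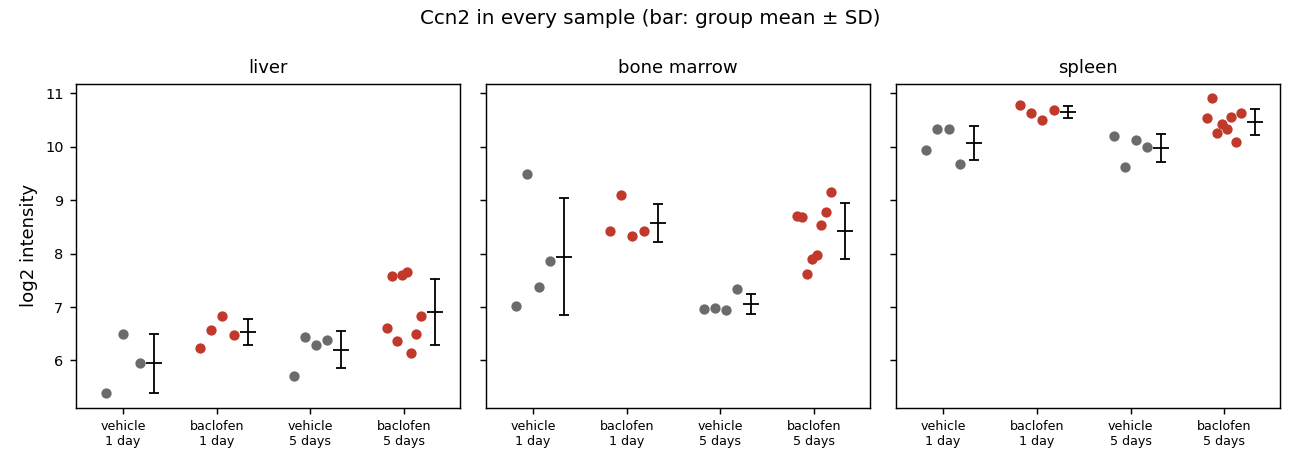
Ccn2 in every sample (points, log2 RMA intensity) by tissue, time and treatment, with group mean and SD. Vehicle and baclofen samples are apart in marrow at 5 days and in spleen at 1 day, and 1 vehicle marrow at 1 day lies above all baclofen marrows of its time.

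Yap1, the co-activator itself, fell 1.22-fold in liver after 5 doses. Vehicle livers read 599, 686, 621 and 566 and baclofen livers ran from 478 over a median of 507 to 531 (n = 8). The groups did not overlap. The difference was -0.29 ± 0.06, with an adjusted p of 0.00369 by limma. Yap1 was the 1 of 6 tested members called, 2 of the 6 had an unadjusted p under 0.05, and 10.6% of all genes were called in this comparison. The call held whichever 1 liver was left out, with differences from -0.33 to -0.24. The second Yap1 probe set, also above the filter, gave -0.17 ± 0.10 with an adjusted p of 0.309, and the mean of both gave -0.23 with an adjusted p of 0.0411. Macrophage genes averaged 8.41 ± 0.22 in the vehicle and 8.00 ± 0.19 in the baclofen livers at 5 days (log2, SD), stellate cell and fibroblast genes 7.55 ± 0.10 and 7.62 ± 0.21, and hepatocyte genes 14.60 ± 0.04 and 14.60 ± 0.02. The part of these cells in the Yap1 value was not tested.

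At 1 day Yap1 in liver was lower by a smaller amount that did not pass. Vehicle livers read 581, 569 and 670.1 and baclofen livers 559.7, 566, 569 and 528. The groups touched at 569. The difference was -0.12 ± 0.07 (adjusted p = 0.534). None of the 6 tested members was called in liver at 1 day, by limma, and 0 had an unadjusted p under 0.05, where 2.67% of all genes were called. Yap1 in marrow differed by 0.10 ± 0.13 and -0.02 ± 0.11 and in spleen by -0.11 ± 0.15 and 0.18 ± 0.13, at 1 and 5 days, with adjusted p-values from 0.373 to 0.944.

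Wwtr1, which encodes TAZ, passed in no comparison. In spleen at 1 day the vehicle samples read 261, 319, 295 and 261 and the baclofen samples 292, 239, 210.4 and 252. At 5 days the vehicle spleens read 247, 218, 297 and 253 and the baclofen spleens ran from 253 over 281 to 335 (n = 8). The groups overlapped at both times, with 3 of the 4 baclofen spleens below all vehicle spleens at 1 day and 2 of the 8 above all of them at 5 days. The differences were -0.20 ± 0.11 (adjusted p = 0.214) and 0.20 ± 0.09 (adjusted p = 0.198). Their change of 0.40 ± 0.14 had an unadjusted p of 0.0132 and an adjusted p of 0.522. In liver Wwtr1 differed by 0.15 ± 0.11 and 0.04 ± 0.09 and in marrow by 0.24 ± 0.23 and -0.11 ± 0.20.

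Tead1, the DNA-binding partner, was tested in liver and spleen and passed in neither. Vehicle livers read 62.0, 62.4 and 53.8 at 1 day and 61.0, 82.5, 62.9 and 61.6 at 5 days. Baclofen livers read 70.2, 59.4, 66.1 and 71.1 at 1 day and ran from 53.4 over 71.1 to 80.8 at 5 days. Groups overlapped at both times, and the differences were 0.17 ± 0.13 (adjusted p = 0.721) and 0.04 ± 0.10 (adjusted p = 0.858). In spleen they were 0.02 ± 0.14 and 0.16 ± 0.12 (adjusted p = 0.931 and 0.387). In marrow, below the filter, the differences were -0.09 and 0.13 and were not tested.

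Of the 2 angiomotin-like genes, Amotl2 was lower with baclofen in marrow at both times and passed at neither. Vehicle marrows read 234, 290.3, 263 and 263 at 1 day and 246, 254, 234 and 249 at 5 days. Baclofen marrows read 205, 225, 268 and 199 at 1 day and ran from 198 over 219 to 248 at 5 days (n = 8). At 1 day 3 of the 4 baclofen marrows lay below all vehicle marrows and replicate 3, the sample with muscle transcript, lay among them; at 5 days 7 of the 8 lay below all vehicle marrows. The differences were -0.23 ± 0.08 (adjusted p = 0.0988) and -0.18 ± 0.07 (adjusted p = 0.126), with unadjusted p-values of 0.0124 and 0.0261. Without baclofen replicate 3 the difference at 1 day was -0.32 with an adjusted p of 0.0101. In liver Amotl2 differed by -0.08 ± 0.10 and 0.04 ± 0.08 and in spleen by -0.02 ± 0.09 and 0.12 ± 0.07.

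Amotl1 was nearest to the threshold in spleen after 5 doses. Vehicle spleens read 379, 282, 383 and 371 and baclofen spleens ran from 358 over 422 to 508 (n = 8). Only 1 baclofen spleen lay below the highest vehicle spleen. The difference was 0.27 ± 0.11 (adjusted p = 0.13, unadjusted p = 0.0206), and it was 0.41 with an adjusted p of 0.128 without the 3 spleens with hepatocyte transcript. At 1 day in spleen it was 0.05 ± 0.13 and in marrow 0.08 ± 0.13 and 0.02 ± 0.11 at 1 and 5 days. In liver the differences were 0.26 ± 0.22 and 0.05 ± 0.18, and a second probe set gave 0.37 ± 0.15 (adjusted p = 0.263) at 1 day.

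**Figure D4:**
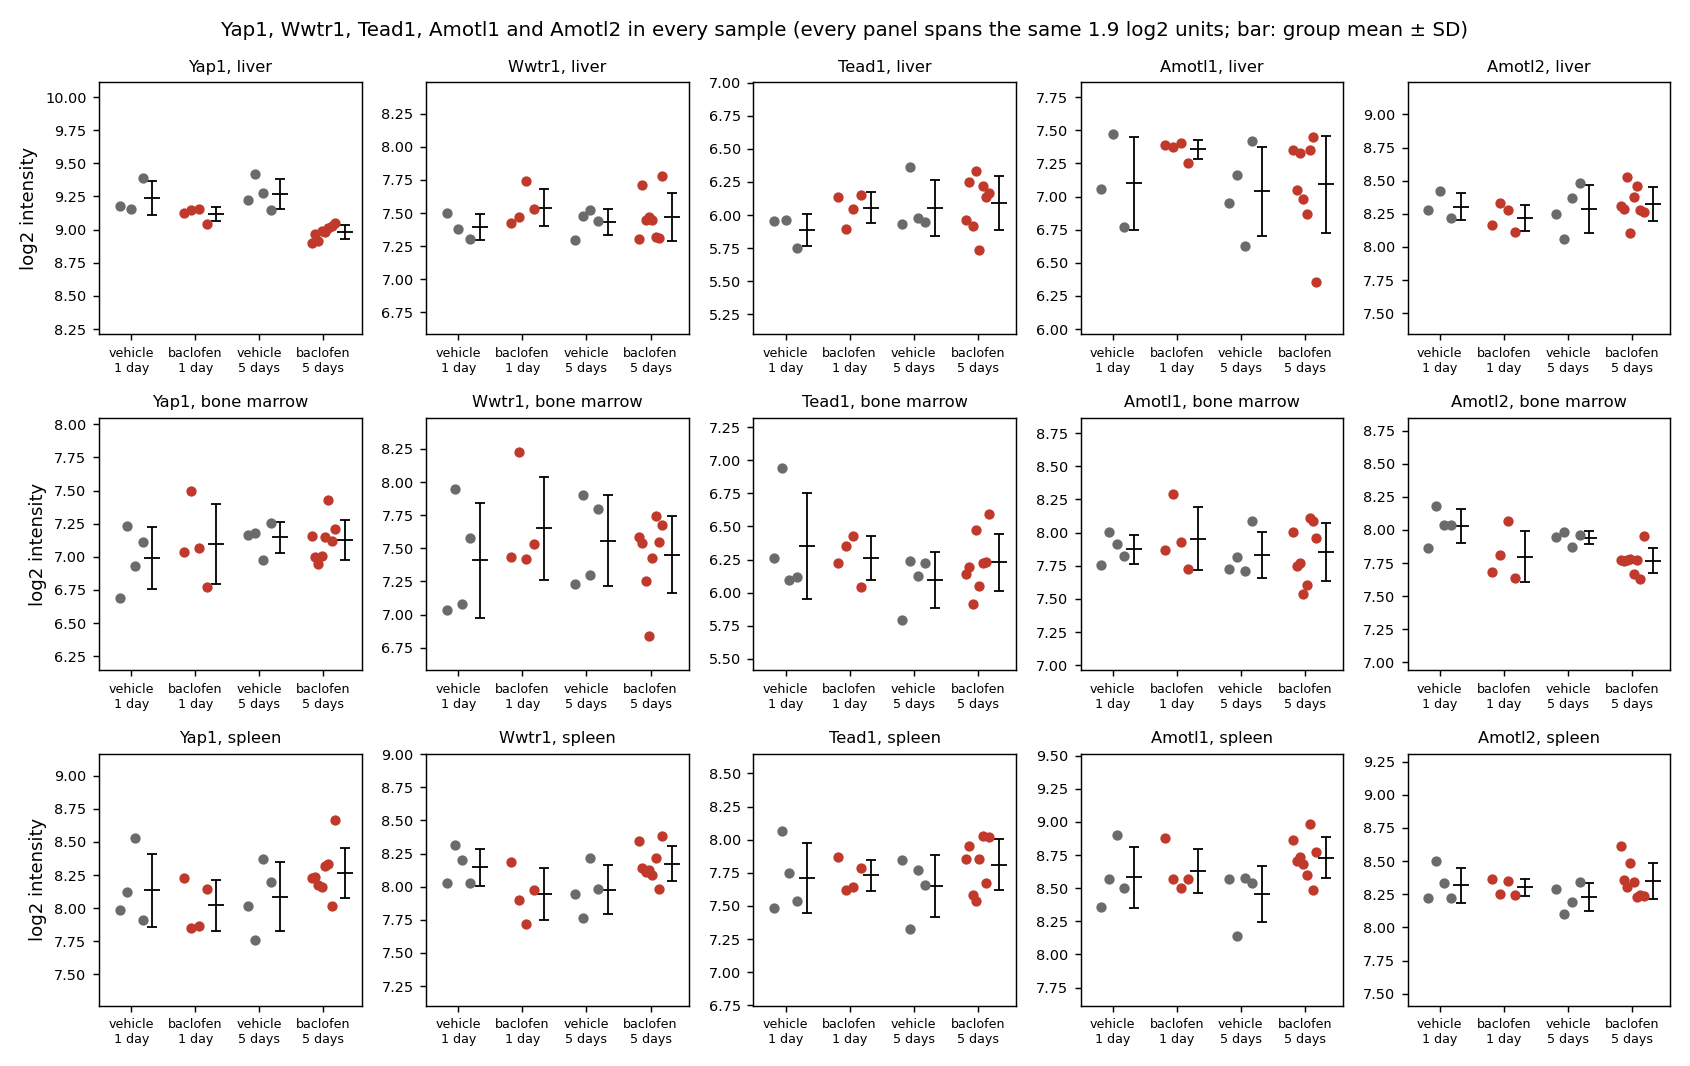
Amotl1, Amotl2, Yap1, Wwtr1 and Tead1 in every sample (points, log2 RMA intensity) by tissue, time and treatment, with group mean and SD; all 15 panels span 1.9 log2 units, so spreads can be compared by eye. In liver the 8 baclofen samples at 5 days lie below the vehicle samples for Yap1.

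The change of the baclofen difference between 1 and 5 days passed for none of the tested members in any tissue. By limma, 0 of the 6 tested members were called in liver with 0 at an unadjusted p under 0.05, 0 of 6 in marrow with 0, and 0 of 7 in spleen with 1, Wwtr1. Over all genes 0.0183%, 0% and 0% were called. In marrow the change was -0.63 ± 0.53 for Ccn1 (adjusted p = 0.966) and 0.73 ± 0.52 for Ccn2 (adjusted p = 0.961), so a call at 1 time and none at the other is not a shown change with time for either gene.

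The vehicle groups were also set against each other, 5 days minus 1 day, and no tested member passed. Limma called 0 of 6 in liver and 0 of 7 in spleen with 0 at an unadjusted p under 0.05 in each, and 0 of 6 in marrow with 1. That 1 was Ccn2 in marrow at -0.88 ± 0.39 (adjusted p = 0.906), where vehicle replicate 2 of 1 day read 723. Over all genes 0% were called in each tissue. The Ccn1 difference of 0.73 in liver is given above with no test. It is not ranked here, because it is part of the value known when the gene was chosen.

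Differences of the baclofen effect between tissues were tested in 1 fit of all 12 groups, which takes the samples of different tissues as independent. The labels do not say whether a number marks 1 mouse in all 3 tissues. For Ccn1 the effect at 1 day was lower in spleen than in marrow by 1.75 ± 0.43 on the log2 scale (adjusted p = 0.0227), and this was the 1 of 6 tested members called or with an unadjusted p under 0.05, where 1.91% of all genes were called. The value was -2.07 with an adjusted p of 0.00543 without the 4 samples with transcripts of another tissue. The call was lost without any of the marrow samples vehicle 1 or 3 and baclofen 2 or 4, or the spleen samples vehicle 1 or 2 and baclofen 3 or 4, all of 1 day, with adjusted p from 0.0506 to 0.0824. At 5 days the Ccn1 value was -1.18 ± 0.37 with an adjusted p of 0.0515, limma called 0 of 6 tested members while 3 had an unadjusted p below 0.05, and 4.48% of all genes were called. The call was gained when any 1 of 13 samples was left out, with adjusted p from 0.0278 to 0.0489, and with samples of the same treatment, time and number taken as a random block across tissues (0.0323), an alternative chosen after seeing the data.

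For Yap1 the effect at 5 days was lower in liver than in spleen by 0.47 ± 0.15 (adjusted p = 0.037), the 1 of 6 tested members called or with an unadjusted p under 0.05, where 11.7% of all genes were called. The call was lost without liver vehicle replicates 2 (adjusted p = 0.0837) or 3 (0.0705), spleen vehicle replicates 1 (0.0635) or 2 (0.158) or spleen baclofen replicates 6 (0.0532) or 8 (0.0601), all of 5 days. Of 9 alternative settings 4 lost the call and 5 kept it, among them the fit without the 4 samples with transcripts of another tissue. For liver against marrow, limma called 0 of 5 tested members at each time with 0 at an unadjusted p under 0.05, where 2.27% and 7.8% of all genes were called at 1 and 5 days. For liver against spleen at 1 day it called 0 of 6, with 0 at an unadjusted p under 0.05, where 6.53% of all genes were called. Ccn1 in liver, described only, differed from marrow by -1.35 ± 0.44 and -1.65 ± 0.37 and from spleen by 0.40 ± 0.44 and -0.47 ± 0.37 at 1 and 5 days. The Ccn2 effect differed between spleen and marrow by -0.05 ± 0.46 at 1 day and -0.88 ± 0.40 at 5 days (adjusted p = 0.967 and 0.167).

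Ccn1 and Ccn2 varied together among marrows of the same group. This test was added after the data were seen, and the share of other gene pairs that vary together as strongly was not counted. Over the values themselves r was 0.719, below the 0.874 to 0.895 of the 5 genes nearest to Ccn1 in marrow. With each value taken as a deviation from its group mean, the 20 marrows gave a Pearson r of 0.597 (permutation p = 0.0131) and a Spearman rho of 0.618 (permutation p = 0.0138), two-sided, with 100000 resamples. Adjusted over marrow and spleen, the 2 tissues tested, these were 0.0262 and 0.0276, and r was 0.518 without the 2 marrows farthest from the median of Ccn1. In the 20 spleens r was 0.456 and rho 0.421 (permutation p adjusted 0.0783 and 0.103). In the 19 livers r was 0.047 and rho -0.102, as a description with no test. Fewer cells of a type and less RNA per cell cannot be told apart in such bulk samples.

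**Figure D5:**
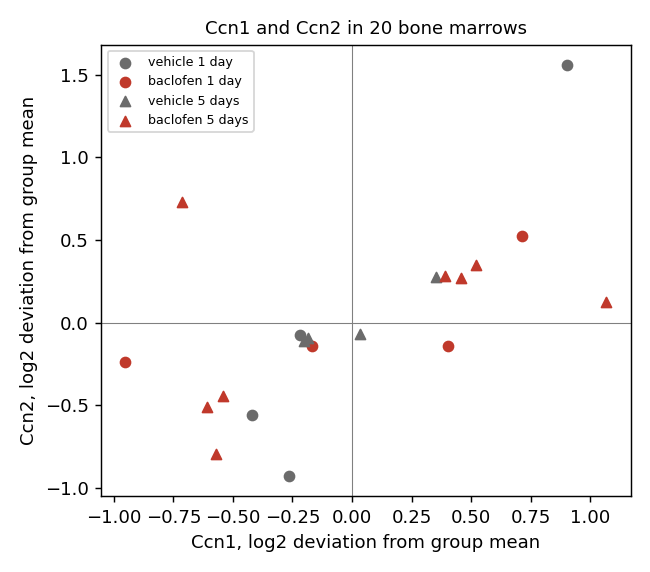
Ccn1 (x axis) against Ccn2 (y axis) in the 20 marrow samples, each as the deviation of its log2 intensity from its group mean. Samples high in Ccn1 within their group were mostly high in Ccn2, with a Pearson r of 0.597.

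Stromal and vascular markers, whose cells are known sources of CCN transcripts, were set beside the marrow values. The mean of 8 marrow stroma and bone genes with values ran from 8.83 to 9.96 in vehicle and 9.69 to 10.20 in baclofen marrows at 1 day, and from 9.38 to 10.05 and 9.36 to 10.27 at 5 days. None of the 8 passed the test at either time, where 7.36% of all genes were called at 1 day and 10.1% at 5 days. Their median difference was 0.42 at 1 day and 0.11 at 5 days. Fibroblast genes ran from 7.77 to 8.44 in vehicle and 8.19 to 8.59 in baclofen marrows at 1 day, and endothelial genes from 6.89 to 7.61 and 7.22 to 7.53. Vehicle replicate 2 of 1 day, high in Ccn1 and Ccn2, was the highest vehicle marrow of its time in stroma genes (9.96) and fibroblast genes (8.44). Megakaryocyte genes, from the platelet lineage that is rich in growth factors, ran from 10.72 to 11.71 in vehicle and 11.07 to 11.27 in baclofen marrows at 1 day.

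In marrow at 5 days, where Ccn2 rose, fibroblast genes averaged 8.21 ± 0.33 in vehicle and 8.04 ± 0.28 in baclofen samples (log2, SD) and endothelial genes 7.25 ± 0.04 and 7.28 ± 0.11. Megakaryocyte genes averaged 11.09 ± 0.16 and 10.96 ± 0.16. Genes of red cell precursors ran from 11.05 to 11.49 in vehicle and from 11.55 to 11.87 in baclofen marrows, with no overlap, and macrophage genes from 9.53 to 9.67 and from 9.65 to 10.10. How often the means of gene lists separate was not counted. The gap between control probe sets at the 3′ and 5′ ends was 0.04 ± 0.01 and 0.09 ± 0.05. The part of these cells and of RNA quality in the Ccn1 and Ccn2 values was not tested.

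In spleen at 1 day, where Ccn2 rose, 0 of 12 tested fibroblast genes and 1 of 13 tested endothelial genes passed. The 1 was Pecam1, a junction protein of endothelium, with 0.40, and 15.5% of all genes were called in this comparison. Neutrophil genes ran from 9.54 to 11.05 in vehicle and from 9.19 to 9.51 in baclofen spleens at 1 day, with no overlap, and megakaryocyte genes averaged 9.37 ± 0.35 and 8.99 ± 0.07 (SD). Such a separation is not particular to neutrophil genes, as bile duct genes ran from 6.04 to 6.39 and from 5.77 to 5.93. At 5 days, where 4.43% of all genes were called, 2 of the 12 tested fibroblast genes rose and 1 fell. Pdgfra rose by 0.87 and Dcn, which encodes the matrix proteoglycan decorin, by 0.97, and Reln fell by 0.91. Of the 13 tested endothelial genes 3 rose. The part of these cells in the Ccn2 values was not tested.

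Other components of the Hippo and YAP pathway are given by count, to be read against the share of all genes called, which was 2.67% and 10.6% in liver, 7.36% and 10.1% in marrow and 15.5% and 4.43% in spleen at 1 and 5 days. The list held 30 genes with no member among them, of which 28 had a probe set. In liver 0 of 23 tested passed at 1 day, and at 5 days 1 fell, Ajuba, a LIM protein that binds the LATS kinases, by 0.77 ± 0.16 (adjusted p = 0.00439). In marrow 3 of 20 fell at 1 day, the kinase Taok2 by 0.38 (adjusted p = 0.00742), Rassf1 by 0.24 (0.0155) and the LATS co-activator Mob1a by 0.31 (0.0191), and at 5 days 1 of 20 fell, Mob1a by 0.23 (0.0334). In spleen at 1 day 1 of 21 rose, Frmd6 with 0.34 (0.0445), and 2 fell, Taok2 by 0.31 (0.0255) and Mob1a by 0.28 (0.041). At 5 days in spleen 2 of 21 rose, Frmd6 with 0.40 (0.0229) and Wwc2, a relative of the LATS scaffold KIBRA, with 0.24 (0.0369). The list's median difference lay between -0.03 and 0.12 in the 6 comparisons, against -0.03 to 0.00 for all genes tested.

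Among 24 other genes known as YAP and TEAD targets, 23 with a probe set, the kinase gene Nuak2 was the one called in most comparisons. It fell in liver at 5 days by 0.99 ± 0.18 (adjusted p = 0.00223) as the 1 of 13 tested that passed, and none of the 13 passed at 1 day. Of the 23 genes, 10 lay below the filter in liver. The mean of all 23, Nuak2 among them, ran from 5.74 to 5.85 in vehicle and from 5.66 to 5.73 in baclofen livers at 1 day. At 5 days it ran from 5.71 to 5.78 and from 5.48 to 5.70. The groups overlapped at neither time, and how often list means separate in this way was not counted. In marrow 2 of 14 rose at 1 day, Nuak2 with 0.33 (0.0327) and Asap1 with 0.20 (0.0448). At 5 days in marrow 3 of 14 rose, among them Gadd45a, a stress gene, with 0.30 (0.0134), Asap1 with 0.20 (0.0185) and Nuak2 with 0.27 (0.0353), and 2 fell, among them Arhgef17 by 0.23 (0.0142). In spleen at 1 day 3 of 18 rose, Nuak2 with 0.59 (0.00733), Nt5e, which encodes the ectonucleotidase CD73, with 0.51 (0.0135) and Igfbp3 with 0.65 (0.0187), and at 5 days 0 of 18 passed. The 3 of 18 in spleen at 1 day stood beside 15.5% of all genes called, and the 5 of 14 in marrow at 5 days beside 10.1%. The difference of Nuak2 between tissues was not tested. The list's median difference was 0.20 in marrow at 1 day and lay between -0.05 and 0.12 in the other comparisons.

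Of the 4 other CCN family genes, 1 was tested in liver, 2 in marrow and 0 in spleen, and none passed. Ccn5 differed by 0.07 and 0.16 in liver and by -0.03 and -0.31 in marrow at 1 and 5 days, and Ccn4 by 0.14 and -0.26 in marrow. Of 14 actin genes and genes coupled to the serum response factor, the co-activator gene Mrtfb rose in liver at 1 day with 0.44 (adjusted p = 0.0294) and in spleen with 0.24 (0.0421) and 0.32 (0.0104) at 1 and 5 days. The cytoskeletal genes Flna and Myh9 fell in liver at 5 days by 0.28 and 0.25, and Tagln2 and Actg1 fell in marrow at 5 days by 0.22 and 0.17. Of 12 genes of TGF-beta signalling, another known inducer of Ccn2, the inhibitor Smad7 rose in spleen with 0.65 (adjusted p = 0.00608) at 1 day and 0.45 (0.0454) at 5 days. In liver Smad7 fell at 5 days by 0.49 (0.0138), Tgfb1 fell by 0.28 (0.0143), and Skil rose at 1 day with 1.00 (0.0048). In marrow the repressor gene Ski fell by 0.29 and 0.23. From the actin and TGF-beta lists only some genes are named, and how many passed in each comparison and direction is not given. Whether these calls exceed the share of all genes called can therefore not be told. That share was 2.67% and 10.6% in liver, 7.36% and 10.1% in marrow and 15.5% and 4.43% in spleen at 1 and 5 days.

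The genes most like a member in pattern were ranked by Pearson correlation over the arrays of 1 tissue, which share treatment groups and hybridisation depth, and are given as a description. Ccn1 in liver was nearest to Tbx3 (r = 0.818 over 19 arrays), Vwa7 (0.812) and Lmna (0.795). In marrow it was nearest to Smim8 (0.895 over 20 arrays), the metallothionein gene Mt2 (0.881) and Errfi1, an inhibitor of the EGF receptor (0.881). In spleen it was nearest to Lrrfip2 (0.772), Emc3 (0.735) and Msra (0.71), and the focal adhesion gene Vcl (0.692) was also among the 5 nearest. Ccn2 in liver was nearest to Cyc1 (0.793), Ssbp4 (0.762) and Slc37a4 (0.761), of which Cyc1 is a subunit of the respiratory chain. Amotl2 in liver was nearest to Klf1 (0.754), Zfp629 (0.744) and Ppara (0.742). No gene stood among the 5 nearest of Ccn1 in more than 1 tissue.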

How the data were processed

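The deposited values are intensity on a linear scale, summarised by the authors with RMA per the submitters' processing notes, which also list limma. The dose was not given in the sources used here. Values were taken to log2. Of 45101 probe sets, 34945 had 1 gene symbol, 932 several and 9160 none, and 64 were controls. The brightest probe set stood for each of 18193 genes, and genes at or above the 40th percentile of a tissue were tested. Each tissue was fitted with limma 3.58.1 (R 4.3.3) on its 4 groups, with p adjusted by Benjamini and Hochberg over genes and a threshold of 0.05, and all 12 groups were fitted together for differences between tissues. The procedure was checked on simulated data. Figures used matplotlib 3.10.9 and python 3.11.15. The members and the gene lists were chosen with earlier results of these data known. All 7 members are named. From each list the rule names up to 4 genes with the smallest adjusted p among those called, or up to 2 with the smallest p where none was, and not all of these are given. For Ccn1 in each tissue and Ccn2 and Amotl2 in liver it names the 5 genes most alike. Alternatives were other filters, probe sets averaged or apart, quantile or median scaling, eBayes options, array weights, an RNA quality covariate, only the groups compared, a stricter threshold, a replicate block, groups from the source field for the 1-day livers, samples left out and, added after seeing the data, a random block across tissues. The number of arrays limits the precision.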

Additional observations from a re-analysis of the deposited data

Results flagged for a closer look

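Of 77 sets of samples of 1 gene, tissue, time and treatment with 4 to 8 samples, 7 held a sample far from the others, and chance gives such a sample in about 1 in 20 groups. In marrow, baclofen replicate 2 at 1 day stood high in Ccn2, at 9.09 (log2 intensity, next 8.43), and in Wwtr1, at 8.23 (next 7.53). Vehicle replicate 2 at 1 day stood high in Ccn1 at 7.57 (next 6.45). Vehicle replicate 4 at 5 days stood high in Ccn2 at 7.33 (next 6.99) and baclofen replicate 8 at 5 days in Amotl2 at 7.95 (next 7.78). In liver, vehicle replicate 2 at 5 days stood high in Tead1 at 6.37 (next 5.97). In spleen, vehicle replicate 2 at 5 days stood low in Amotl1 at 8.14 (next 8.54).

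Baclofen effects differed between tissues past the test for Ccn1, spleen minus marrow at 1 day, at -1.75 on the log2 scale, and for Yap1, liver minus spleen at 5 days, at -0.47. Causes were not tested.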

How the results depend on the processing

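Of 1042 values of 98 gene results under alternative settings, 979 kept their direction and side of the threshold, and of 2673 with 1 sample left out 2547 did. Values of Ccn1 in liver, which was not tested, are among these. They were counted as kept where they held their direction and stayed within the pooled SD of Ccn1 in liver. No called value changed sign, and 40 and 75 values that passed in neither fit did. The number of members called moved as follows. Except where a gene fell below the filter, the cause was not tested. At adjusted p under 0.01 it was 0 in marrow at 1 day, marrow at 5 days, spleen at 1 day, spleen against marrow at 1 day and liver against spleen at 5 days. With array weights it was 2 in marrow at 1 day, 3 in marrow at 5 days, 1 between vehicle marrows, 0 in liver against spleen at 5 days and 2 in spleen against marrow at 5 days, while calls over all genes went from 803 to 2416, 1100 to 4404, 0 to 523, 1086 to 766 and 458 to 958. With probe sets averaged it was 0 in marrow at 1 day, spleen against marrow at 1 day and liver against spleen at 5 days. With a filter at the 60th percentile it was 0 in the first 2 of these, and with no filter 0 in the last. In the first 2, under both settings, Ccn1 fell below the filter and was not tested. Yap1 in liver against spleen was tested and did not pass, with adjusted p by limma of 0.0549 (probe sets averaged) and 0.054 (no filter). With only the groups compared it was 0 in marrow and in spleen at 1 day. With quantile scaling it was 1 in spleen at 5 days, and without the 4 samples with transcripts of another tissue 2 in marrow at 1 day. With 1 sample left out it ranged from 0 to 2 in marrow at 1 day and from 0 to 1 in marrow at 5 days, spleen at both times, spleen against marrow at both times and liver against spleen at 5 days, and did not move in the other comparisons.

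With the replicate number as a replicate block, 2 members were called in liver at 5 days (385 genes in all, against 1159) and 0 in marrow at 5 days (30 against 1100), where Ccn2 was 1.17 with an adjusted p of 0.105; Ccn2 in liver at 5 days was 0.84 with an adjusted p of 0.0493. Within tissues, samples of the same number did not deviate together (mean correlation -0.022 in liver, -0.017 in marrow and -0.019 in spleen). Across tissues, samples of the same treatment, time and number correlated at 0.056, 0.055 and 0.083 on average, against -0.012, -0.012 and -0.018 for other numbers. With these as a random replicate block, chosen after seeing the data (correlation 0.082), 1 member was called in spleen against marrow at 5 days and the other between-tissue counts of members did not move. Signal over background could not be given, because detection calls were not used here.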
